A study of Homo sapiens with 12 samples.

Results

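CABYR, CSTA, ZSCAN4, LACC1, CLTRN, HCAR3, FBXW7 and TRIM22 are 8 genes whose transcripts responded less to AICAR in HepG2 cells that carry a hairpin against p53 than in HepG2 cells that carry a control hairpin. They were chosen from the AICAR and DMSO arrays themselves, as genes with a smaller AICAR response in the line with the p53 hairpin, and they are 8 of 18417 genes measured. Each is read by 1 probe set that the platform annotation pairs with that single symbol.

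HepG2 is an established human hepatoma cell line. In the sh-p53 line a small hairpin targets p53, and the sh-con line has a non-relevant hairpin as its control; the labels name 1 line for each hairpin, so an effect of the hairpin cannot be told apart from any other difference between these 2 lines. Each line was treated for 24 h with 0.5 mM AICAR, with 10 uM Nutlin or with DMSO, the control. The 6 groups were therefore sh-p53 AICAR, sh-con AICAR, sh-p53 Nutlin, sh-con Nutlin, sh-p53 DMSO and sh-con DMSO, each with 2 arrays from cells plated as biological duplicates. All values are the authors' log2 array values, 1 unit of which is a 2-fold change in signal. Differences are given on that scale with the standard error (SE) of a linear model fitted to all 12 arrays with limma, and a gene counts as called when its p, adjusted by Benjamini and Hochberg over 13813 genes, is under 0.05. The p-values measure the spread between duplicate cultures only.

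p53 is a transcription factor that is kept low in unstressed cells by MDM2, a ubiquitin ligase that p53 itself induces. Nutlin occupies the p53 pocket of MDM2 and so stabilises p53 without damaging DNA. AICAR is a nucleoside that adenosine kinase converts to an AMP mimic, which activates AMPK, the energy-sensing kinase of hepatocytes and most other cells, and AMPK can phosphorylate p53. Of the 8 genes, FBXW7 and TRIM22 are known p53 targets, and the others have roles in lipid sensing, transport, protease inhibition, purine metabolism, the early embryo and the sperm tail.

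The hairpin labels were checked through CDKN1A, the p21 inhibitor of cyclin-dependent kinases, and MDM2. CDKN1A read 7.61 and 7.63 in sh-p53 with Nutlin, against 9.92 and 9.76 in sh-con with Nutlin, and MDM2 read 11.20 and 11.17 in sh-p53, against 12.07 and 12.21 in sh-con. Both were lower in sh-p53 under Nutlin, CDKN1A by -2.22 ± 0.13 (limma adjusted p = 9.19e-10) and MDM2 by -0.96 ± 0.14 (limma adjusted p = 4.39e-05). In DMSO, CDKN1A read 6.14 and 6.32 in sh-p53, against 7.06 and 6.93 in sh-con. MDM2 read 9.78 and 9.96 in sh-p53 DMSO, against 10.63 and 10.47 in sh-con DMSO. The arrays of the 2 lines were thus apart without Nutlin too, and limma called both genes higher with Nutlin in sh-p53. The cell type was checked through 18 hepatocyte markers, all above 4.58 in every group, the cutoff under which a gene's mean counted as dim. Their summed signal on the linear scale was 55480 to 60080 in sh-p53 Nutlin arrays and 61550 to 61610 in sh-con Nutlin arrays, 52130 to 55610 in sh-p53 AICAR and 59910 to 63760 in sh-con AICAR, and 52370 to 57270 in sh-p53 DMSO and 58710 to 63220 in sh-con DMSO. The sum was thus lower in sh-p53 under each treatment, and its part in the results below was not tested. Duplicates had Pearson r = 0.983 to 0.994 across genes, lowest for sh-con AICAR, where their difference had an SD of 0.302.

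The 250 bases before a start site are shown for CABYR and ZSCAN4, which had the 2 highest AICAR responses of the 8 in sh-con, and for CLTRN, which had the second highest Nutlin response. Promoter windows from RefSeq (GRCh38.p14) were matched by symbol for 5 of the 8 genes, CABYR, ZSCAN4, LACC1, CLTRN and FBXW7, with 10 windows in all because a gene can have several start sites. Capitals mark TATAAA or the motif CCAAT and, in the short stretch, the p53 half-site consensus. Each motif was searched on both strands, so ATTGG stands for the motif CCAAT on the other strand. The first CABYR window lies at chr18:24138812-24139061 on the plus strand, the CABYR stretch at chr18:24139329-24139358 on the plus strand, the ZSCAN4 window at chr19:57668685-57668934 on the plus strand and the CLTRN window at chrX:15664806-15665055 on the minus strand.
CABYR, first start: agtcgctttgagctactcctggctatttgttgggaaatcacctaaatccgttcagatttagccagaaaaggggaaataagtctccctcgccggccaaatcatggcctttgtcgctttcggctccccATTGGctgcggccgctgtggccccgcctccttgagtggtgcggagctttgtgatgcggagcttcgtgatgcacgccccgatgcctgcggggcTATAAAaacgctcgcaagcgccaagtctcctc
CABYR, second start: cgcctctcttGGACAAGTCCaggcgatgtg
ZSCAN4: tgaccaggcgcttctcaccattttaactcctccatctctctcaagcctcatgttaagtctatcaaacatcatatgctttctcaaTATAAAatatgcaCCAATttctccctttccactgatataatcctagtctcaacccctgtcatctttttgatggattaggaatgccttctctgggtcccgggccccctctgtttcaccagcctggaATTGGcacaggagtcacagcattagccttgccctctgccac
CLTRN: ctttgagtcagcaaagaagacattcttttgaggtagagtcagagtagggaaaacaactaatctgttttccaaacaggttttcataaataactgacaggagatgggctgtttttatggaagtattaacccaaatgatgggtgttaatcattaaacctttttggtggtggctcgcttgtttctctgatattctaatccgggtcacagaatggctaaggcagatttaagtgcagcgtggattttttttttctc
The p53 half-site consensus has 10 letters and was found in 1 of the 10 windows of 300 bases (250 before and 50 after the start), the second of CABYR, where its first base is at position -145 from the start. The share over all 35116 RefSeq promoter windows was 6.63%. TATAAA was found in the first CABYR window, the ZSCAN4 window and 1 of the 4 FBXW7 windows, and in 11.5% of all windows, and CCAAT in the first CABYR window, the ZSCAN4 window and another FBXW7 window, and in 34.6% of all windows. The upstream stretch of CLTRN held none of the 3 motifs. These matches are letters in a window, not measured binding sites.

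**Figure D1:**
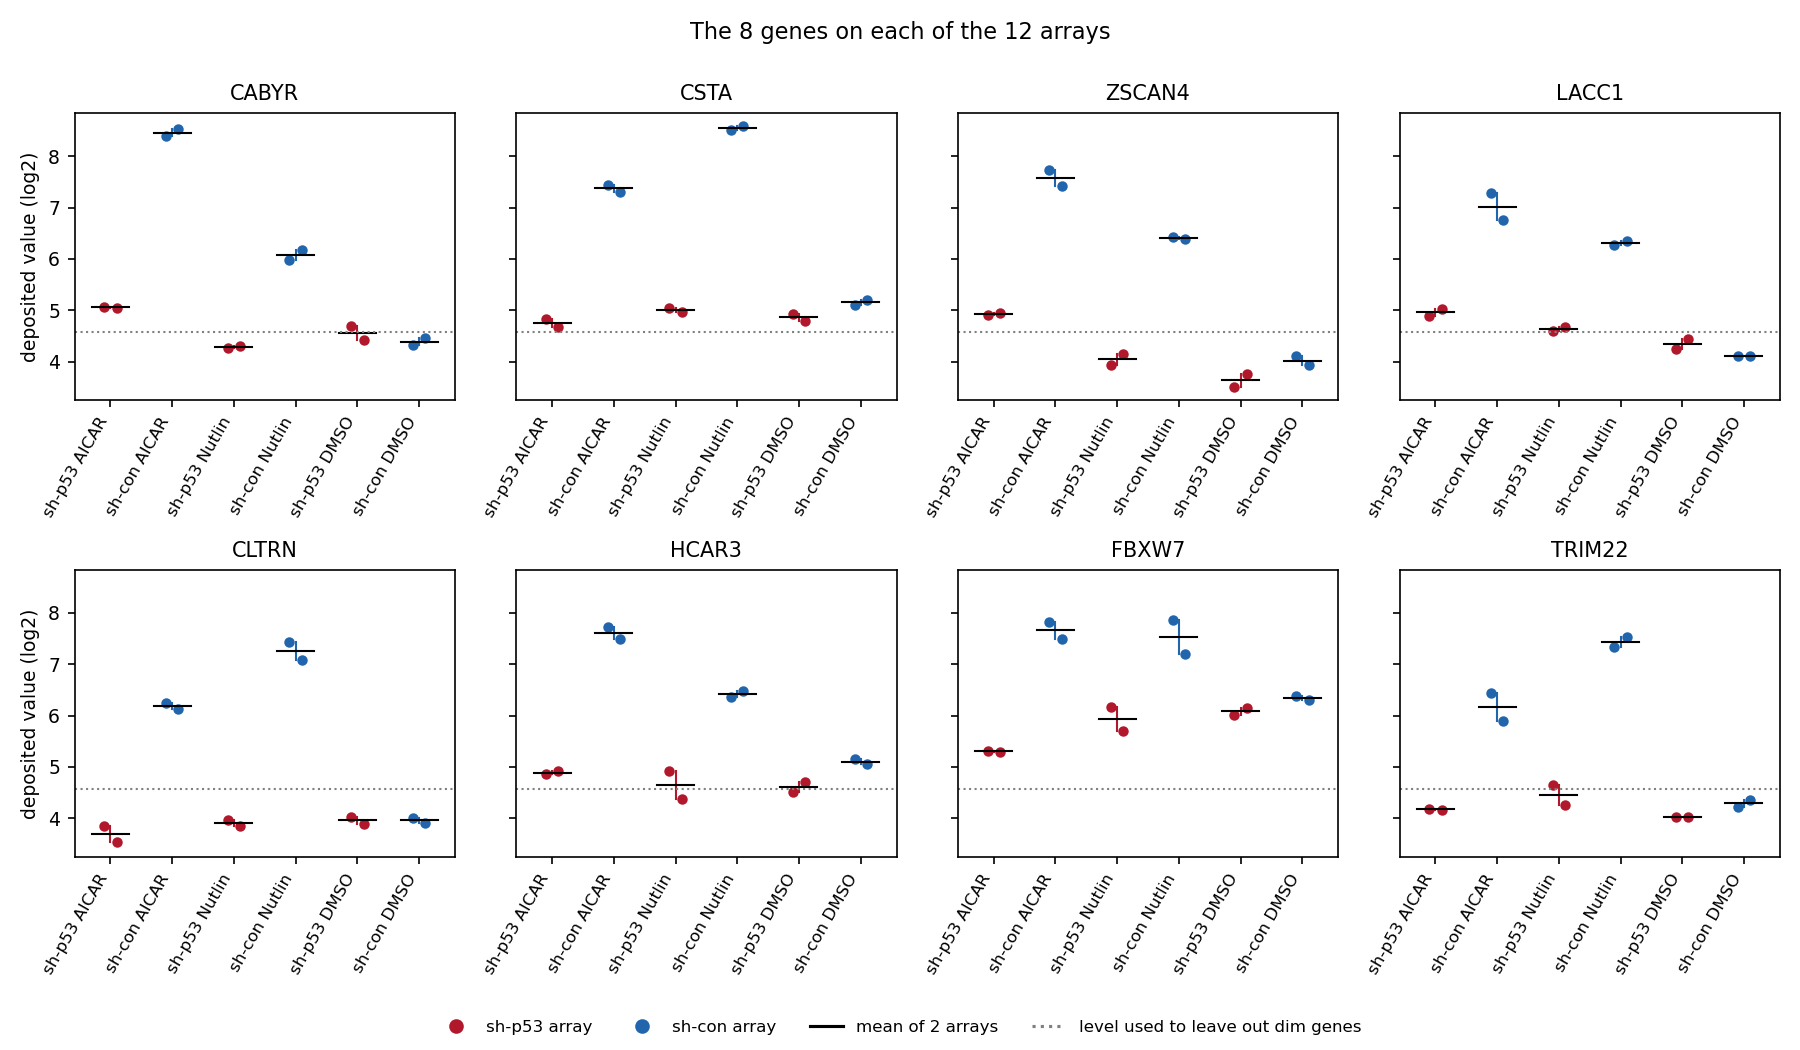
The deposited log2 value (y axis) of each of the 8 genes on each of the 12 arrays, by group (x axis), with points for arrays, a black line for the mean of 2 arrays and a dotted line at 4.58, the cutoff for dim genes. In every panel the sh-con AICAR and sh-con Nutlin arrays lie above all arrays of the other 4 groups.

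HCAR3 encodes a Gi-coupled receptor for a medium-chain hydroxy fatty acid and is best known from adipocytes and immune cells. With AICAR, HCAR3 read 4.86 and 4.92 in sh-p53, against 7.73 and 7.49 in sh-con. Nutlin arrays gave 4.92 and 4.37 in sh-p53 and 6.37 and 6.48 in sh-con, and DMSO arrays 4.51 and 4.71 in sh-p53 and 5.15 and 5.05 in sh-con. Both treatments raised the signal in sh-con beyond its DMSO arrays, whereas all 6 sh-p53 arrays stayed below the lowest sh-con array. Under Nutlin, HCAR3 was lower in sh-p53 by -1.78 ± 0.17, a 3.43-fold difference (limma adjusted p = 2.57e-07). Mean levels ran in the order sh-con AICAR, sh-con Nutlin, sh-con DMSO, sh-p53 AICAR, sh-p53 Nutlin and sh-p53 DMSO, and the arrays of the last 3 groups overlapped from neighbour to neighbour.

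CLTRN encodes collectrin, a membrane protein that helps amino acid transporters reach the surface of kidney cells. With AICAR, CLTRN read 3.86 and 3.54 in sh-p53, against 6.25 and 6.12 in sh-con. It read 3.97 and 3.85 in sh-p53 with Nutlin, against 7.44 and 7.09 in sh-con with Nutlin, and 4.03 and 3.89 in sh-p53 DMSO, against 4.01 and 3.91 in sh-con DMSO. The sh-p53 arrays lay below 4.58 under every treatment, and how much of such dim values is background was not measured. Under Nutlin the difference was -3.35 ± 0.15, or 10.2-fold (limma adjusted p = 4.36e-11). Levels above 4.58 were read in sh-con Nutlin and sh-con AICAR, with the Nutlin arrays above the AICAR arrays, and the other 4 groups overlapped from neighbour to neighbour.

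CSTA encodes cystatin A, an inhibitor of cysteine cathepsins that is abundant in epidermis and leukocytes. With AICAR, CSTA read 4.83 and 4.68 in sh-p53, against 7.44 and 7.31 in sh-con. Under Nutlin it read 5.03 and 4.96 in sh-p53 and 8.51 and 8.59 in sh-con, and in DMSO 4.93 and 4.79 in sh-p53 and 5.10 and 5.20 in sh-con. The 6 sh-p53 arrays spanned less than the distance from sh-con DMSO to either treated sh-con group. Under Nutlin, CSTA was lower in sh-p53 by -3.55 ± 0.13 (11.7-fold; limma adjusted p = 6.32e-12), rank 4 among the decreases of all 13813 genes. Its level in sh-con was higher with Nutlin than with AICAR, the order that CLTRN and TRIM22 also had.

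LACC1 encodes an enzyme of purine nucleoside metabolism that is best known from macrophages. With AICAR, LACC1 read 4.89 and 5.02 in sh-p53, against 7.28 and 6.76 in sh-con. The Nutlin values were 4.60 and 4.68 in sh-p53 and 6.26 and 6.35 in sh-con, and the DMSO values 4.24 and 4.45 in sh-p53 and 4.10 and 4.10 in sh-con. In sh-p53 the arrays of the 3 treatments did not overlap and ran in the order AICAR, Nutlin, DMSO, as in sh-con but over a narrower range. Under Nutlin, LACC1 was lower in sh-p53 by -1.67 ± 0.16 (3.18-fold; limma adjusted p = 3.38e-07). In DMSO its sh-p53 arrays lay above its sh-con arrays, by 0.24 ± 0.16, with both groups below 4.58.

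FBXW7 encodes the substrate-binding F-box protein of an SCF ubiquitin ligase that marks cyclin E, MYC and NOTCH proteins for degradation, and it is a tumour suppressor. With AICAR, FBXW7 read 5.32 and 5.30 in sh-p53, against 7.82 and 7.50 in sh-con. It read 6.16 and 5.69 in sh-p53 Nutlin and 7.86 and 7.19 in sh-con Nutlin, and 6.02 and 6.15 in sh-p53 DMSO and 6.39 and 6.31 in sh-con DMSO. FBXW7 and CSTA were the 2 genes with every array above 4.58, and the 2 Nutlin arrays of FBXW7 differed more from each other, in both lines, than the arrays of its other groups. Under Nutlin the difference between the lines was -1.60 ± 0.20, or 3.02-fold (limma adjusted p = 7.62e-06), the smallest of the 8. With AICAR the sh-p53 arrays lay below the sh-p53 DMSO arrays, by -0.78 ± 0.20, while the sh-con arrays lay above the sh-con DMSO arrays, by 1.31 ± 0.20. AICAR differences of opposite sign in the 2 lines were also read for CLTRN and CSTA.

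TRIM22 encodes a RING ubiquitin ligase of the tripartite motif family that restricts viruses and is induced by interferon as well as by p53. With AICAR, TRIM22 read 4.18 and 4.16 in sh-p53, against 6.44 and 5.90 in sh-con. For Nutlin the values were 4.66 and 4.26 in sh-p53 and 7.34 and 7.53 in sh-con, and for DMSO 4.02 and 4.03 in sh-p53 and 4.22 and 4.37 in sh-con. All sh-p53 groups had a mean below 4.58, and the arrays of the lines were far apart with either compound. Under Nutlin, TRIM22 was lower in sh-p53 by -2.98 ± 0.17 (7.88-fold; limma adjusted p = 5.87e-10).

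ZSCAN4 encodes a SCAN-domain zinc finger protein of the early embryo that acts on telomeres in mouse embryonic stem cells. With AICAR, ZSCAN4 read 4.91 and 4.95 in sh-p53, against 7.72 and 7.41 in sh-con. Its Nutlin readings were 3.94 and 4.16 in sh-p53 and 6.42 and 6.38 in sh-con, and its DMSO readings 3.50 and 3.77 in sh-p53 and 4.10 and 3.94 in sh-con. Of the 8 genes ZSCAN4 kept the most of its AICAR response in sh-p53, 1.29 ± 0.15 there and 3.55 ± 0.15 in sh-con, with sh-p53 DMSO arrays under 4.58. Under Nutlin, ZSCAN4 was lower in sh-p53 by -2.35 ± 0.15 (5.11-fold; limma adjusted p = 1.82e-09).

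CABYR encodes a calcium-binding protein of the fibrous sheath of the sperm tail that is also made by some tumours. With AICAR, CABYR read 5.07 and 5.05 in sh-p53, against 8.38 and 8.53 in sh-con. Readings under Nutlin were 4.27 and 4.31 in sh-p53 and 5.99 and 6.17 in sh-con, and readings in DMSO 4.69 and 4.42 in sh-p53 and 4.32 and 4.46 in sh-con. The sh-con AICAR arrays stood above the sh-con Nutlin arrays by more than 2 log2 units, the widest such separation among the 8. Under Nutlin, CABYR was lower in sh-p53 by -1.79 ± 0.14 (3.46-fold; limma adjusted p = 2.71e-08).

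The Nutlin arrays were not used to choose the genes, and the difference between the lines under Nutlin is the comparison on which they could be tested. All 8 were lower in sh-p53, against 8.31% of the 13813 genes called lower and 13.1% called higher. For all 8 every sh-p53 Nutlin array lay below every sh-con Nutlin array, by gaps of 1.03 for FBXW7 to 3.47 for CSTA, and such a gap in that direction was present for 28.7% of all genes. The median difference of the 8 was -2.07, against -0.03 for all genes. For 5 of them, CABYR, ZSCAN4, LACC1, CLTRN and TRIM22, the mean over the arrays other than sh-con AICAR and sh-con Nutlin was below 4.58, so they passed the filter on dim genes through the groups in which they are high, and the counts describe the 8 genes and no more. With no filter 8 of 8 were called lower. Leaving out 1 array left 8 of 8 called lower in each of 4 refits, while the number of all genes called lower changed to 733, against 1148 in the full fit, without array 1 of sh-con Nutlin, and the number called higher to 889, against 1808, without array 1 of sh-p53 Nutlin and to 958 without array 2 of sh-con Nutlin. The arrays measure bulk RNA, so fewer cells with a transcript and less transcript per cell cannot be told apart. With 2 arrays against 2, an exact permutation test of a single gene could not go below p = 0.333.

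**Figure D2:**
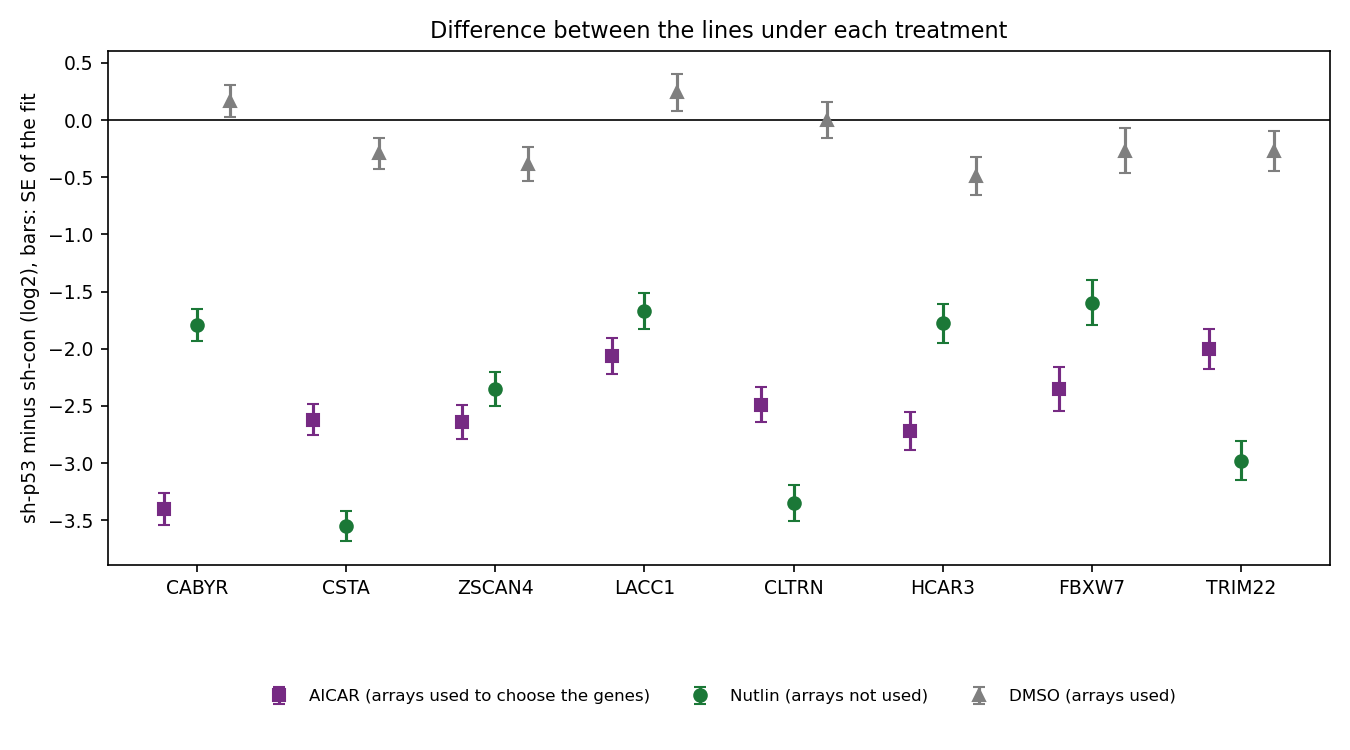
The difference between the lines, sh-p53 minus sh-con (y axis, log2, bars are the SE of the fit), for each of the 8 genes (x axis) under AICAR, Nutlin and DMSO. Under AICAR and Nutlin all 8 lie between -3.55 and -1.60, and in DMSO all lie between -0.49 and 0.24, where the AICAR and DMSO arrays were the ones used to choose the genes.

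The response to Nutlin within each line shares the DMSO arrays with the choice of the genes, so it stands beside the Nutlin comparison above and is not separate from it. In sh-con, Nutlin raised all 8 over DMSO (limma, adjusted p from 6.92e-12 to 0.000186), where 11.3% of all genes were called higher and 18.9% lower. The log2 increases were 3.40 ± 0.13 for CSTA, 3.30 ± 0.15 for CLTRN and 3.14 ± 0.17 for TRIM22, followed by 2.38 ± 0.15 for ZSCAN4 and 2.21 ± 0.16 for LACC1. CABYR rose by 1.69 ± 0.14, HCAR3 by 1.33 ± 0.17 and FBXW7 by 1.18 ± 0.20. The protease inhibitor, the transport protein and the antiviral ligase were thus the 3 strongest, and were 3 of the 9 largest Nutlin increases of all genes. The number of all genes called higher, 1563 in the full fit, was smaller in every refit without 1 array. Such a refit leaves 1 array in a group, and the cause of the smaller number was not tested.

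In sh-p53, limma called 0 of the 8 changed by Nutlin, where 0.0796% of all genes (11 genes) were called higher and 0 lower. Of 53 other known p53 targets tested, 6 were called higher there and 0 lower, led by CDKN1A, TP53INP1, MDM2 and SPATA18. Differences of the 8 ran from -0.27 ± 0.14 for CABYR to 0.43 ± 0.17 for TRIM22, with adjusted p from 0.545 to 0.989. At an unadjusted p under 0.05, 2 of the 8 were higher, ZSCAN4 with a difference of 0.41 ± 0.15 and TRIM22. Nutlin arrays of sh-p53 lay above the DMSO arrays of sh-p53 for 4 genes (CSTA, ZSCAN4, LACC1 and TRIM22), which 14.2% of all genes did, below them for CABYR, which 20.7% did, and overlapped them for CLTRN, HCAR3 and FBXW7. The 11 genes called over the whole table became 5 without any one of 3 arrays, array 1 of sh-p53 Nutlin and arrays 1 and 2 of sh-p53 DMSO.

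The Nutlin response itself was smaller in sh-p53 for all 8 genes by the interaction term of the model, where 2.73% of all genes were called in that direction and 4.67% in the other. This term uses the DMSO arrays of both lines with the same signs as the AICAR term that chose the genes. Spread in those arrays that favoured the choice also favours this result, so it is no separate test. The difference between responses was -3.35 ± 0.22 for CLTRN (limma adjusted p = 2.20e-08), -3.26 ± 0.19 for CSTA (limma adjusted p = 6.91e-09) and -2.71 ± 0.24 for TRIM22 (limma adjusted p = 5.64e-07). It was -1.97 ± 0.21 for ZSCAN4, -1.96 ± 0.20 for CABYR and -1.91 ± 0.23 for LACC1, with adjusted p from limma of 4.21e-06, 2.25e-06 and 1.23e-05. FBXW7, with -1.33 ± 0.28 (limma adjusted p = 0.00424), and HCAR3, with -1.29 ± 0.24 (limma adjusted p = 0.00138), had the smallest differences. Over all genes 377 were called lower in the full fit, and 233, 239 and 247 without array 1 of sh-p53 DMSO, array 2 of sh-con DMSO and array 1 of sh-con Nutlin.

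The AICAR values chose the genes and are given as a description, with no test. In sh-con, AICAR minus DMSO was 4.07 ± 0.14 for CABYR, 3.55 ± 0.15 for ZSCAN4, 2.92 ± 0.16 for LACC1, 2.51 ± 0.17 for HCAR3, 2.23 ± 0.15 for CLTRN, 2.22 ± 0.13 for CSTA, 1.88 ± 0.17 for TRIM22 and 1.31 ± 0.20 for FBXW7, in a comparison that called 14.6% of all genes higher. The order differs from that under Nutlin, with CABYR first and CSTA, CLTRN and TRIM22 in the lower part of the list. In sh-p53 the same difference was 1.29 for ZSCAN4, 0.61 for LACC1, 0.50 for CABYR, 0.28 for HCAR3, 0.15 for TRIM22, -0.11 for CSTA, -0.26 for CLTRN and -0.78 for FBXW7, in a comparison that called 16.2% of all genes higher and 21.6% lower. Over all genes AICAR changed 37.8% in each line. Centring each array on its median turned the TRIM22 value in sh-p53 to -0.0042.

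The difference between the AICAR responses, sh-p53 minus sh-con, ran from -3.57 ± 0.20 for CABYR to -1.73 ± 0.24 for TRIM22, where 0.709% of all genes were called lower. Between them lay CLTRN with -2.49 ± 0.22, CSTA with -2.33 ± 0.19, LACC1 with -2.31 ± 0.23, ZSCAN4 with -2.25 ± 0.21, HCAR3 with -2.23 ± 0.24 and FBXW7 with -2.09 ± 0.28. With AICAR the lines differed by -3.40 for CABYR, -2.72 for HCAR3, -2.64 for ZSCAN4, -2.62 for CSTA, -2.49 for CLTRN, -2.35 for FBXW7, -2.06 for LACC1 and -2.00 for TRIM22, where 4.69% of all genes were called lower. In DMSO the lines differed by -0.49 ± 0.17 for HCAR3 to 0.24 ± 0.16 for LACC1, where 0.384% of all genes were called lower. CABYR, ZSCAN4, LACC1, CLTRN and TRIM22 had means below 4.58 in both DMSO groups, so a fold over DMSO is least certain for these 5.

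In all, 76 genes (0.55% of the 13813) were called higher with AICAR in sh-con and had a smaller AICAR response in sh-p53, and the 8 genes rank 1, 3, 4, 5, 6, 7, 8 and 13 among them by the size of that difference. Up to the place of TRIM22 (-1.73), the 5 others were TP53I3 (-2.49), a p53 target that encodes a quinone oxidoreductase, MR1 (-2.07), which presents microbial metabolites to T cells, TMC7 (-2.07), KITLG (-1.88), the ligand of the KIT receptor, and LINC00324 (-1.76). Just outside was LIF-AS2 (-1.73). Under Nutlin, on arrays not used for this choice, 62 of the 68 other genes were lower in sh-p53 (limma, 8.31% of all genes), 2 were higher (MUC13 and FRK) and 4 were not called (KITLG, LINC02249, SMOX and APOBEC3D). Their median difference was -1.22, beside -2.07 for the 8 genes and -0.03 for all genes. MUC13, FRK, LINC02249, SMOX and APOBEC3D were named after their values were seen.

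**Figure D3:**
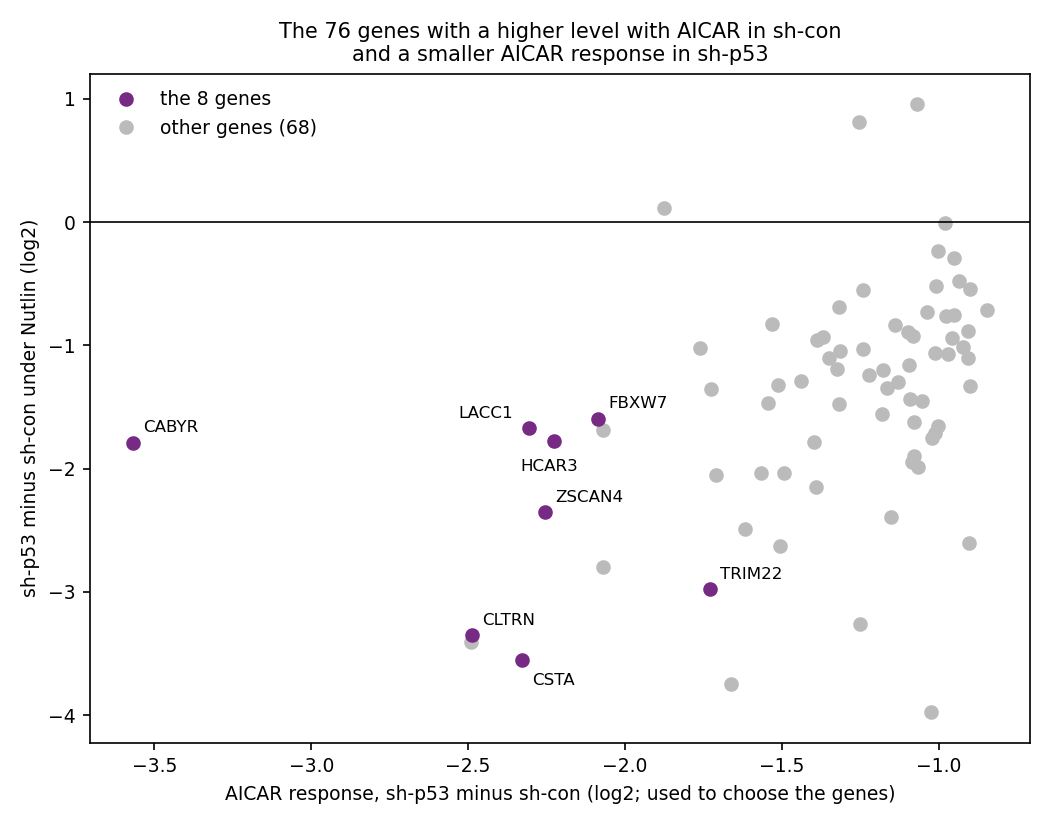
The 76 genes that were higher with AICAR in sh-con and had a smaller AICAR response in sh-p53, with the difference between AICAR responses (x axis, log2, the values used to choose the genes) and the difference between lines under Nutlin (y axis, log2). The 8 named genes all lie at or below -1.60 on the y axis, and 2 of the 68 other genes were called above 0.

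Among related genes, TRIM22 lies beside TRIM5 in a gene cluster, and both restrict retroviruses. TRIM5 read 7.04 and 6.78 in sh-p53 Nutlin, against 7.78 and 7.83 in sh-con Nutlin, and was lower in sh-p53 by -0.89 ± 0.15 (limma adjusted p = 0.000211). TRIM38, a regulator of innate immune signalling, read 6.36 and 6.09 in sh-p53 Nutlin, against 7.24 and 6.86 in sh-con Nutlin, a difference of -0.82 ± 0.17 (limma adjusted p = 0.00157). TRIM21, an intracellular antibody receptor, read 5.82 and 5.71 in sh-p53 Nutlin and 5.65 and 5.88 in sh-con Nutlin, and was not called (limma adjusted p = 0.997). All 3 relatives rose with AICAR in sh-con, TRIM38 by 2.02 ± 0.17, TRIM21 by 1.25 ± 0.15 and TRIM5 by 0.63 ± 0.15, and of these TRIM38 had a smaller response in sh-p53 (-1.53 ± 0.24, limma adjusted p = 0.00298). Of 30 other interferon-induced genes tested, limma called 6 higher and 2 lower in sh-p53 under Nutlin, with a median of 0.14. The 2 lower ones included TAP1, a peptide transporter of antigen presentation (-0.88 ± 0.14), and the higher ones included PSMB9, an immunoproteasome subunit (0.82 ± 0.15), IFITM3, which blocks virus entry (0.77 ± 0.16), and IFI35 (0.67 ± 0.16). The other 22 were not called, and the shares over all genes in this comparison were 13.1% higher and 8.31% lower.

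HCAR2, the niacin and hydroxybutyrate receptor, is nearly identical to HCAR3 in sequence, and how far the probes of each read the other was not tested. HCAR2 read 6.12 and 5.65 in sh-p53 AICAR, against 7.46 and 7.23 in sh-con AICAR, then 6.00 and 5.29 in sh-p53 Nutlin, against 6.75 and 6.74 in sh-con Nutlin, and 5.69 and 5.20 in sh-p53 DMSO, against 5.69 and 5.42 in sh-con DMSO. Its pattern had the same direction as that of HCAR3 at smaller size, with -1.10 ± 0.22 between the lines under Nutlin (limma adjusted p = 0.00111) and -1.35 ± 0.30 between the AICAR responses (limma adjusted p = 0.042). Of the 5 receptors of this list that were tested, HCAR2 was the one called in either comparison, and GPR31 (-0.20), FFAR3 (-0.21), FFAR1 (-0.06) and OXER1 (0.16) were not called under Nutlin. HCAR1, FFAR2, FFAR4, SUCNR1 and OXGR1 had means below 4.58 and were not tested.

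CSTB, the other cytosolic cystatin of the stefin group, read 10.52 and 10.19 in sh-p53 Nutlin and 10.82 and 10.85 in sh-con Nutlin. It was lower in sh-p53 by -0.48 ± 0.14 (limma adjusted p = 0.0202), and AICAR changed it in sh-con by 0.06 ± 0.14 (limma adjusted p = 0.747). Of 10 cystatins other than CSTA tested, CSTB included, 6 were lower and 0 higher in sh-p53 under Nutlin (median -0.45), led by FETUB (-0.86 ± 0.14) and CST4 (-0.66 ± 0.20). Over all genes 8.31% were called lower and 13.1% higher. At an unadjusted p under 0.05 the same counts were 6 lower and 0 higher. None of the 10 had a smaller AICAR response in sh-p53 by the adjusted test (before adjustment, 0 lower and 1 higher had p under 0.05), unlike CSTA, whose AICAR values chose it. Of 10 cathepsins, the proteases that cystatins inhibit, CTSC (1.32 ± 0.13) and CTSV (0.81 ± 0.20) were higher in sh-p53 under Nutlin and CTSB (-0.63 ± 0.13) and CTSL (-0.47 ± 0.15) were lower. Of 12 other genes of the epidermal envelope, DSP (-0.53 ± 0.16) and PPL (-0.44 ± 0.13), both of desmosomes or the envelope, were lower and 10 were not called.

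**Figure D4:**
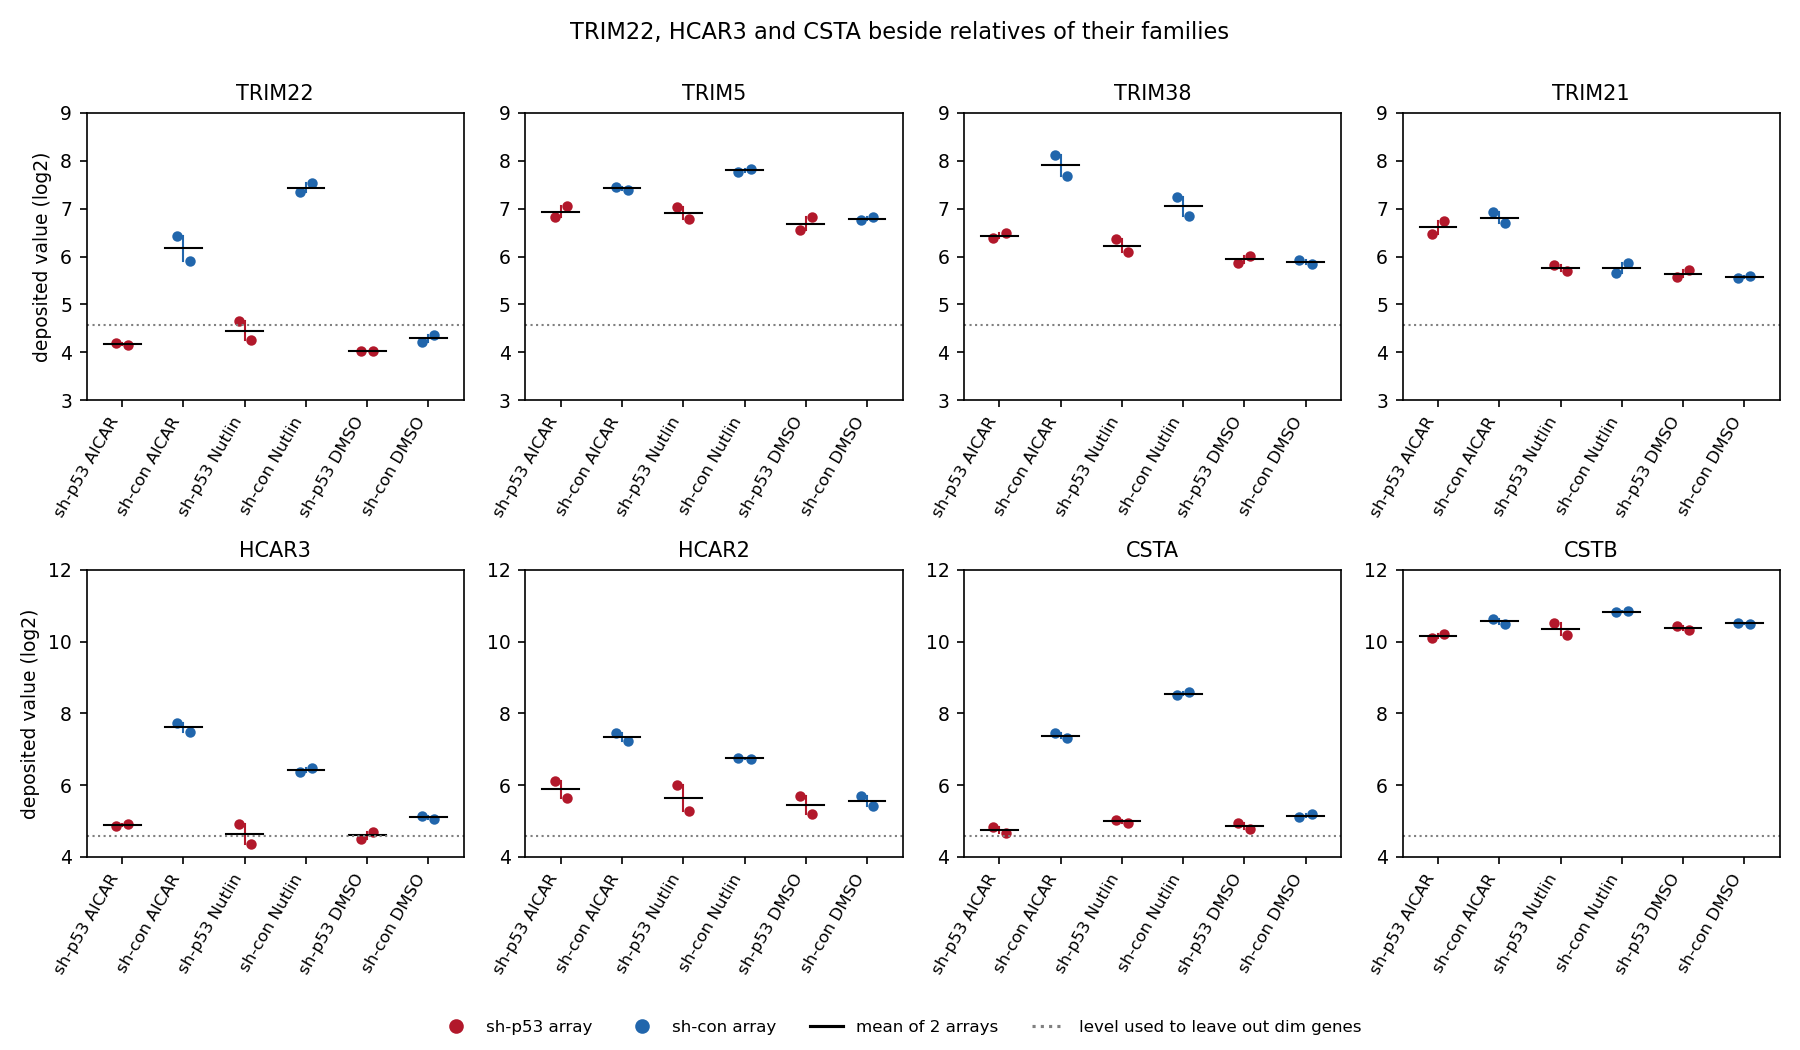
Deposited log2 values (y axis) of TRIM22, HCAR3 and CSTA and of relatives of each on the 12 arrays, by group (x axis), with points for arrays, black lines for means of 2 arrays and a dotted line at 4.58. The arrays of the lines overlap for TRIM21 under AICAR and Nutlin and lie far apart for TRIM22, HCAR3 and CSTA.

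FBXW7 works with SKP1, CUL1 and RBX1, which form the core of the SCF ligase. The list of SCF genes, of which 7 were tested, also holds F-box proteins other than FBXW7, namely SKP2, BTRC and FBXW11. SKP2, which targets cell-cycle inhibitors, read 9.48 and 9.41 in sh-p53 Nutlin, against 8.02 and 7.95 in sh-con Nutlin. It was higher in sh-p53 by 1.46 ± 0.13 (limma adjusted p = 1.69e-07). CUL1, the scaffold, was higher by 0.49 ± 0.16 (limma adjusted p = 0.0325). The other 5 were not called, with differences of 0.16 for SKP1, 0.35 for RBX1, 0.30 for CAND1, 0.26 for BTRC and 0.03 for FBXW11. With AICAR in sh-con 6 of the 7 fell and SKP1 rose by 0.63 ± 0.14, where 23.2% of all genes were called lower, and BTRC fell by 1.42, FBXW11 by 0.96, CAND1 by 0.83, CUL1 by 0.76, SKP2 by 0.70 and RBX1 by 0.49. In sh-p53 AICAR lowered 5 of the 7 (median -0.71) and SKP1 rose by 0.48 ± 0.14, where FBXW7 itself differed by -0.78, and SKP2, at -0.07, was not called. The AICAR values of FBXW7 chose it, so its direction beside these genes is no result. Of 20 transcripts whose proteins FBXW7 marks for degradation, AURKA, a mitotic kinase (2.05 ± 0.17), and the cyclins CCNE2 (1.89 ± 0.19) and CCNE1 (1.27 ± 0.14) were higher in sh-p53 under Nutlin, 3 were lower, among them PPARGC1A (-0.71 ± 0.14), and 14 were not called. Over all genes 13.1% were called higher and 8.31% lower in this comparison, so these counts and those of the SCF genes are a description. The arrays measure transcripts, not the proteins on which the ligase acts.

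LACC1 was set beside genes of purine nucleoside metabolism and of its known partners, of which 9 were tested. ADA, adenosine deaminase, was lower in sh-p53 under Nutlin by -0.63 ± 0.15, and RIPK2 (0.49 ± 0.17), PNP (0.47 ± 0.16) and MTAP (0.42 ± 0.14) were higher, with 5 not called. With AICAR in sh-con, PNP, a purine nucleoside phosphorylase, rose by 0.94 ± 0.16 and 4 genes fell, among them ADK, the kinase that phosphorylates AICAR, by 1.41 ± 0.19. ADK read 6.86 and 7.33 in sh-p53 AICAR, against 8.18 and 8.59 in sh-p53 DMSO, and 7.03 and 6.55 in sh-con AICAR, against 8.27 and 8.13 in sh-con DMSO. Its response did not pass the test of a difference between the lines (0.11 ± 0.27, limma adjusted p = 0.934). Of 19 genes of the AMPK pathway tested, 0 had a different AICAR response in the lines by limma (before adjustment, 1 higher and 1 lower had p under 0.05). Under Nutlin 3 were lower in sh-p53 (SLC29A1, a nucleoside transporter, by -0.94 ± 0.13, PRKAB1 by -0.67 ± 0.13 and PRKAB2 by -0.51 ± 0.14) and PRKAA2, a catalytic subunit of AMPK, was higher by 0.54 ± 0.15. For both lists, the shares over all genes between the lines under Nutlin were 13.1% called higher and 8.31% lower. With AICAR in sh-con they were 14.6% higher and 23.2% lower.

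ZSCAN4 and CABYR belong to programmes of the embryo and the male germ line that a liver cell line does not normally run. Of 25 genes listed for the embryonic stage at which ZSCAN4 is active, 16 were measured and 3 were bright enough to test, and limma called 0 of the 3 in sh-p53 against sh-con under Nutlin (before adjustment, 0 higher and 1 lower had p under 0.05) and 0 with AICAR in sh-con (0 at an unadjusted p under 0.05). DUX4, an activator of that stage, rose with Nutlin in sh-con by 0.49 ± 0.17 (limma adjusted p = 0.0381), and differed by 0.30 ± 0.17 with AICAR in sh-con (limma adjusted p = 0.174). Of 16 other SCAN zinc finger genes tested, ZSCAN2 was lower in sh-p53 under Nutlin (-0.43 ± 0.14) and 15 were not called. Of 15 sperm tail genes and CABYR partners listed, 4 were tested, and ODF2, which is also a centrosome protein, was higher in sh-p53 under Nutlin by 0.69 ± 0.13. The other 3 were not called, and 2 of the 4 were lower at an unadjusted p under 0.05 (median of the 4, -0.10). Over all genes 13.1% were called higher and 8.31% lower in this comparison. For CLTRN, limma called 0 of 8 partners and relatives tested under Nutlin (0 at an unadjusted p under 0.05) and 0 with AICAR in sh-con (2 higher at an unadjusted p under 0.05).

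Markers of other cell types were set beside these genes, since several are known from leukocytes, epidermis or germ cells. Of 9 leukocyte markers measured, PTPRC, MS4A1, ITGAM and FCGR3A were below 4.58 in every group. CD14, CD68 and LYZ were above it in every group, and CD3E and CD2 in some groups. The sum of the 9 on the linear scale, in which LYZ is the brightest, was 5851 to 6325 in sh-p53 Nutlin and 6442 to 6527 in sh-con Nutlin. CD14 was lower in sh-p53 under Nutlin (-0.74 ± 0.15, limma adjusted p = 0.00149) and rose in sh-con with AICAR (0.93 ± 0.15) and with Nutlin (0.92 ± 0.15), and in sh-p53 with AICAR (0.48 ± 0.15). CD68 rose with AICAR in both lines, by 0.89 ± 0.13 in sh-p53 and 0.59 ± 0.13 in sh-con, and was not called with Nutlin in either line. The part of CD14 and CD68 in the results for LACC1, CSTA and HCAR3 was not tested. Of 6 epidermal markers KRT1 and DSG3 were below 4.58 in every group, while KRT5, KRT14 and KRT10 were above it in every group and IVL in 5. The sum of the 6 markers was 157.9 to 186.9 in sh-p53 Nutlin and 187.1 to 191.7 in sh-con Nutlin. Of 8 germ cell markers DDX4, PRM1, TNP1, SYCP3 and PGK2 were below 4.58 in every group, while PRM2 and ACR were above it in every group and DAZL in 1. The sum of the 8 markers was 168.4 to 186.4 in sh-p53 Nutlin and 189.1 to 200 in sh-con Nutlin. The fibroblast sum was 244.4 to 294.9 in sh-p53 Nutlin and 296 to 329.1 in sh-con Nutlin, and the endothelial sum 176 to 195.8 in sh-p53 Nutlin and 197.8 to 223.1 in sh-con Nutlin. The sums of all 6 marker lists, hepatocytes included, were thus lower in sh-p53 Nutlin without overlap, and their part in the results was not tested. Among single genes, 28.7% had such a gap in that direction, and no such share was computed for sums over lists. Gene by gene, limma called 0 of the tested fibroblast, endothelial, epidermal and germ cell markers in this comparison. Of 18 hepatocyte markers 1 was called higher, 1 lower and 16 neither, with a median of -0.05, and of 3 leukocyte markers CD14 was lower. With AICAR the leukocyte sum was 5459 to 5912 in sh-p53 and 6302 to 6547 in sh-con, the epidermal sum was 180.5 to 204.7 in sh-p53 and 164.5 to 218.3 in sh-con, and the germ cell sum 185 to 211.8 in sh-p53 and 170.7 to 208.6 in sh-con. The fibroblast sum with AICAR was 293 to 315.3 in sh-p53 and 274.7 to 347.5 in sh-con, and the endothelial sum 189.5 to 217.9 in sh-p53 and 192.5 to 217.7 in sh-con. With AICAR the epidermal, germ cell, fibroblast and endothelial sums overlap between the lines, and the leukocyte and hepatocyte sums do not.

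Of 53 other known p53 targets tested, limma called 45 lower and 0 higher in sh-p53 under Nutlin, with a median of -0.93, led by ABCA12, a lipid transporter (-3.80 ± 0.13), TP53I3 (-3.40 ± 0.16) and SPATA18, which acts in mitochondrial quality control (-2.29 ± 0.17). The list was written with earlier results of these data known. With AICAR in sh-con 41 of the 53 rose and 1 fell, where 14.6% of all genes were called higher and 23.2% lower. In sh-p53, 23 of the 53 rose with AICAR and 4 fell, where 16.2% of all genes were called higher and 21.6% lower. Of the 53, 12 had a smaller AICAR response in sh-p53, where 0.709% of all genes were called in that direction. CDKN1A was not one of the 12: it read 8.02 and 7.96 in sh-p53 AICAR, against 6.14 and 6.32 in sh-p53 DMSO, and 9.31 and 9.21 in sh-con AICAR, against 7.06 and 6.93 in sh-con DMSO. Its responses differed by -0.51 ± 0.19 (limma adjusted p = 0.24), and those of PMAIP1, a BH3-only activator of apoptosis, by -1.06 ± 0.25 (limma adjusted p = 0.0528), beside -1.73 to -3.57 for the 8 genes. That order is fixed by the choice of the 8 genes.

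Across the 12 arrays, which are 6 groups of 2, the 8 genes had Pearson r from 0.676 to 0.996 (median 0.856) over their 28 pairs. The AICAR and DMSO arrays of both lines took part in choosing the genes, among them sh-con AICAR, 1 of the 2 groups with high values. A high r between the 8 genes was thus in large part set by that choice and is given as a description. By the same measure over 12 arrays, the genes most like CABYR were TNFRSF10A (r = 0.974), a death receptor of the p53 programme, RNF39 (0.971) and SPTSSA (0.964). ZSCAN4 was most like DUSP14 (0.987), TNFRSF10A (0.986) and RETSAT (0.986), LACC1 most like APAF1 (0.977), ZFYVE1 (0.975) and TNFRSF10A (0.974), and HCAR3 most like SPTSSA (0.98), TNFRSF10A (0.972) and DUSP14 (0.966). The genes with the higher Nutlin values formed another set of neighbours. CSTA was most like MRI1 (0.989), PDE4C (0.986) and ADGRG1 (0.984), CLTRN most like MRI1 (0.99), PDE4C (0.985) and ZNF561 (0.983), and TRIM22 most like MRI1 (0.991), CYP3A43 (0.991) and SERPINA6 (0.989). FBXW7 was most like ZNF654 (0.968), FCHO2 (0.961) and CHP1P2 (0.959). MRI1, a methionine salvage enzyme, read 6.75 and 6.71 in sh-p53 Nutlin, against 7.50 and 7.42 in sh-con Nutlin, so a high r does not mean a change of like size.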

How the data were processed

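Biotin-labelled cDNA from 200 ng of HepG2 total RNA was read on Affymetrix arrays, per the labels' protocols. The authors deposited log2 values per probe set, made with RMA and Partek per the submitters' processing notes; no source used here gives their versions or settings. That method is meant to equalise the arrays' distributions and compresses changes of dim genes, and its values carry no detection call. Of 33297 probe sets, the platform annotation, which can be old, gave 1 symbol to 19460, several to 1754 and none to 12083, which are unnamed here; 19429 of the single symbols were found in RefSeq (GRCh38.p14). A gene was read by its brightest probe set with 1 symbol, and those whose mean fell under the 25th percentile (4.58) were left out, which left 13813 of 18417. Array medians lay between 5.64 and 5.84, so the deposited distributions were not identical. Precision is limited by 2 arrays a group.

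Groups came from the array titles. A single linear model of 6 group means over 12 arrays was fitted with limma 3.58.1 under R 4.3.3, using data.table (version 1.17.8; 6 residual degrees of freedom, 11.3 added by empirical Bayes), and tested on both sides at an adjusted p under 0.05. Simulated data of 13813 genes, in which 200 were lowered in sh-p53 under Nutlin, gave back 91% of log2 changes of -1 and 100% of changes of -2, with 11 false calls. Duplicate numbers in the titles were checked for pairing: over 15 pairs of groups the correlation of their deviations ran from -0.558 to 0.567, so they were not used. Promoters were searched in Python 3.11.15 with pandas 2.3.3, and figures drawn with matplotlib 3.10.9.

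The 8 genes, the gene lists (from general knowledge) and the naming rule were chosen with earlier results of these data known. Named were the 8 genes, CDKN1A and MDM2, and up to 4 called genes per list with the largest changes. Also named were all TRIM22 relatives, listed SCF genes and HCAR receptors, CSTB and ADK. The 3 genes most like each of the 8 and the 10 genes with the strongest AICAR difference were named too. Marker genes below the dim level, PMAIP1, DUX4 and TRIM22's neighbours in rank up to LIF-AS2 were named after their values were seen. Alternatives were quantile normalisation repeated, centring on the array median, no filter and a filter at the 50th percentile, the mean of a gene's probe sets, an intensity trend, a fit of only the groups compared, a replicate block and leaving out each array. The hairpin's own target transcript is not reported here.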

Additional observations from a re-analysis of the deposited data

Results flagged for a closer look

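The Nutlin response differed between the lines for each of the 8 genes by the interaction term of the limma model. As sh-p53 minus sh-con on the log2 scale the difference was -1.96 for CABYR, -3.26 for CSTA, -1.97 for ZSCAN4, -1.91 for LACC1, -3.35 for CLTRN, -1.29 for HCAR3, -1.33 for FBXW7 and -2.71 for TRIM22, with adjusted p from 6.91e-09 for CSTA to 0.00424 for FBXW7. In each case the sh-con response was higher than 1 log2 unit and the sh-p53 response lay between -0.27 and 0.43. The DMSO arrays of this comparison also served to choose the genes, whereas the Nutlin arrays did not.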

How the results depend on the processing

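All 388 values of the 8 genes in the 4 Nutlin comparisons kept their side of the threshold under the 8 alternatives and the refits without 1 array. Their sign was kept too, except for 6 of 89 values of Nutlin minus DMSO in sh-p53, where none of the 8 was called: HCAR3 was -0.24 to -0.0062 in 3 settings, against 0.04 in the reported fit, CLTRN 0.02 and 0.01 in 2, against -0.05, and FBXW7 0.08 in 1, against -0.15. A filter at the 50th percentile left FBXW7 as the 1 gene of the 8 still tested, so 1 of the 8 was called lower between the lines under Nutlin, 1 higher with Nutlin in sh-con and 1 lower in the interaction. Fewer genes tested is the construction of that filter. Counts over all genes moved more, and the cause was not tested. A fit of only the groups compared called 2491 genes higher with Nutlin in sh-con, and 29 higher and 38 lower with Nutlin in sh-p53. In sh-p53 Nutlin lowered 1 gene after repeated quantile normalisation, 12 with the stricter filter and 11 with the intensity trend, against 0 in the reported fit, and repeated quantile normalisation gave 586 smaller Nutlin responses in sh-p53, against 377.

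Without 1 array at a time, the genes called between the lines under Nutlin numbered 889 to 1784 higher and 733 to 983 lower, those with Nutlin in sh-con 737 to 1168 higher and 1324 to 2262 lower, those with Nutlin in sh-p53 5 to 9 higher, and those in the interaction 411 to 695 higher and 233 to 321 lower. Where this left 1 array in a group, that array was taken to vary like the other groups. With the duplicate number as a replicate block, which the labels do not support as a pairing, 8 of 8 genes were called lower between the lines under Nutlin, with 1816 genes higher and 1159 lower in all, 1635 higher and 2638 lower with Nutlin in sh-con, 12 higher and 0 lower with Nutlin in sh-p53, and 670 higher and 387 lower in the interaction. Of 477 descriptive values from the AICAR and DMSO arrays 13 moved by more than the replicate SD, all under repeated quantile normalisation or centring. Centring moved the median AICAR difference of all genes by -0.14 in sh-con and -0.15 in sh-p53. The quantile step moved the Nutlin difference between lines of single genes by a median of -0.05. It took the median difference of all genes from -0.029 to -0.047. Levels near 4.58 limit every fold over DMSO.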

Other observations

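Other genes that were higher with AICAR in sh-con and responded less in sh-p53 included PLTP, a phospholipid transfer protein of lipoproteins, with -1.66 between the AICAR responses and -3.75 between the lines under Nutlin (limma adjusted p = 8.55e-12). NUPR1, a stress-induced chromatin protein, had -1.51 and -2.63 (limma adjusted p = 1.07e-09), and ACER2, an alkaline ceramidase, had -1.71 and -2.05 (limma adjusted p = 1.93e-06). MUC13, a membrane mucin, went the other way under Nutlin: it was higher in sh-p53 by 0.81 (limma adjusted p = 0.00235) and, in DMSO, higher by 1.20, while AICAR raised it by 4.59 in sh-con and its AICAR response was smaller in sh-p53 by -1.25. These genes were named after their values were seen.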
